A study of Mus musculus with 12 samples.

Results

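Retinal ganglion cells are the output neurons of the retina, and their axons form the optic nerve. In this study 28 genes known as markers of these cells or of their subtypes were followed, out of 27179 gene IDs counted in every library. The genes were a list chosen by name and were found by their Entrez IDs. Of the 28, 16 were grouped as general ganglion cell genes and are called pan-ganglion genes here, and 12 were grouped as markers of subsets and are called subtype genes. The grouping was made by name, and how widely each gene is made among ganglion cells was not tested. All 28 were expressed highly enough to be tested, with between 25 and 13612 counts in a library. Stmn2, another ganglion cell gene, was left out by the rule that chose the list, because it lies in a stretch of chromosome 3 with raised levels in KO retina.

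Whole mouse retinas were profiled by RNA sequencing at 3 months and at 12 months of age, from control mice (genotype label Control) and from mice with a glial deletion of ABCA1, a transporter that exports cholesterol and phospholipids (genotype label Glia-ABCA1KO, here KO). Each of the 4 groups had 3 libraries, 12 in all. The labels name neither the driver of the deletion nor the strain or sex. Nor is it stated that each library is a different mouse, and p-values therefore reflect library-to-library spread that could be technical. The series' title links ABCA1 loss in astrocytes to optic neuropathy, and the question asked here was whether RNA of ganglion cell genes differed between KO and control retina, and with age in each genotype.

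Ganglion cells receive signals from bipolar and amacrine cells and send them along myelinated axons to the brain. Their identity is set by POU-domain and LIM-homeodomain transcription factors, their long axons are rich in neurofilaments, and they release glutamate through the vesicular transporter encoded by Slc17a6. They are a small share of retinal cells, and several of their markers are also made by other retinal neurons. Isl1 is made by ON bipolar and starburst amacrine cells, the Ebf factors by amacrine cells, neurofilaments by horizontal cells, and Jam2 by endothelial cells.

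Totals ran from 29027099 to 30438026 counts per library. Replicate 2 of 3-month control stood apart from the other controls of that age, with squared differences 43.1 and 41.9 times the counting variance against 4.19 between those other libraries. Replicate 1 of 12-month KO differed from the others of its group by 21.6 and 24.9 times the counting variance, against 5.16 between those others. Skeletal muscle genes summed to 110 to 121 CPM in 3-month control and to at most 26.6 CPM elsewhere. Lens genes summed to 36.2 CPM or more in every 3-month control library, reaching 2704 CPM in replicate 2, and to at most 22.0 CPM elsewhere. Xist, the RNA of the inactive X chromosome, stood at 52.3 to 85.5 CPM in 12-month KO and at 0.609 CPM or less in the other libraries, while the Y-linked Ddx3y ran from 20.0 to 47.4 CPM over all of them. Leaving out each library in turn bears only on the single libraries that stood apart. The Xist, muscle and lens gene differences are each shared by every library of a group, though that of the lens genes is largest in 1 library. They cannot be told apart from that group's genotype and age, and their part in the values below was not tested. Abca1 itself had 22.7 ± 3.34 CPM (SD, n = 3) in 3-month control, 26.3 ± 1.78 in 3-month KO, 30.8 ± 2.66 in 12-month control and 36.3 ± 7.91 in 12-month KO, and these counts over all cells cannot check a deletion in glia alone.

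None of the 28 genes passed the test for KO against control at either age. At 12 months 0 of 28 genes passed an adjusted p of 0.05 in edgeR's quasi-likelihood test, where 0.212% of 16475 genes passed, and the adjusted p of the 28 ran from 0.52 to 0.99. At 3 months 0 of 28 passed, where 0.225% of all genes did, with adjusted p from 0.65 to 0.98. DESeq2 also called 0 of 28 at each age. At an unadjusted p under 0.05 edgeR gave 2 genes at 12 months (7.14%, against 8.7% of all genes) and 4 at 3 months (14.3%, against 7.5%), and DESeq2 gave 4 and 3. Shares of all genes, here and below, are those of the edgeR fit of all libraries. None was taken for DESeq2 or for fits with a library left out, so those counts cannot be set against such a share. The edgeR count at 3 months was 0 without replicate 2 of 3-month control or without replicate 2 of 3-month KO. It was 5 without replicate 1 or without replicate 3 of 3-month control. The count at 12 months was 0 without replicate 1 of 12-month control or without replicate 2 of 12-month KO. It was 3 without replicate 3 of 12-month control.

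Levels per length were compared first. Scaled CPM (counts per megacount of the library, after TMM scaling) were divided by the length of each gene's exons in kb. On this scale the pan-ganglion genes had a median of 20.5 CPM per kb and the subtype genes of 2.15, and both sets spread widely, from 2.13 to 113 and from 0.0963 to 23.1. Nefl, Sncg and Tubb3 were the highest, at 113, 103 and 100.2 CPM per kb. Jam2 was the highest subtype gene, in the seventh place of 28. The lowest were Adcyap1, Tbr1 and Foxp2, at 0.719, 0.606 and 0.0963 CPM per kb. The sets overlapped, and 10 of 16 pan-ganglion genes lay below Jam2. The lowest pan-ganglion genes were Prph, a type III intermediate filament, and Rbpms, at 2.13 and 4.01 CPM per kb. The exon lengths are those of a GENCODE annotation and may differ from the gene models the counts were made with. As a check of tissue, rod and cone genes summed to between 45872 and 54396 CPM in a library, against 1375 to 1631 CPM for the 16 pan-ganglion genes.

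**Figure D1:**
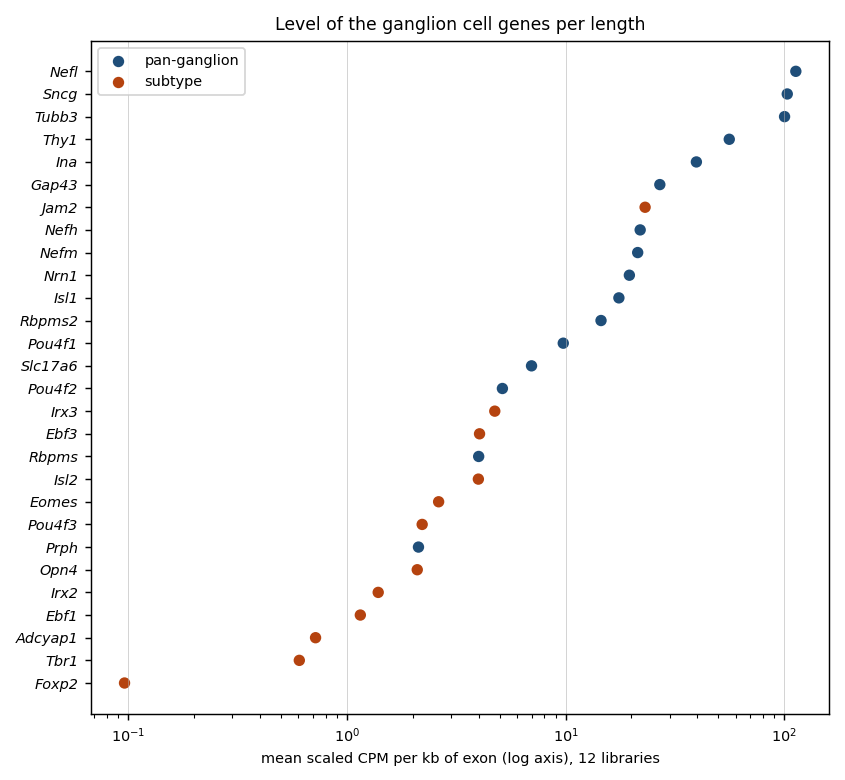
Mean scaled CPM per kb of exon over the 12 libraries (log axis) for each of the 28 ganglion cell genes, in order of level; blue points are pan-ganglion genes and orange points subtype genes. The pan-ganglion genes run from 2.13 to 113 CPM per kb and the subtype genes from 0.0963 to 23.1, so the sets overlap, with Jam2 the highest subtype gene.

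The RNA-binding proteins Rbpms and Rbpms2 are used to count ganglion cells in tissue. Rbpms (Entrez 19663, chromosome 8 from 33782643 to 33929922, GRCm38) stood at 27.8, 22.4 and 27.3 CPM in 3-month control and at 25.0, 26.1 and 25.8 CPM in 3-month KO. At 12 months it stood at 27.7, 24.9 and 26.3 CPM in control and at 30.8, 26.6 and 24.5 CPM in KO. The groups overlapped at both ages. The log2 fold change of KO over control was 0.05 at 12 months, with a 95% interval from -0.16 to 0.27, and -0.01 at 3 months, from -0.23 to 0.21. Rbpms2 had log2 fold changes of -0.05 and -0.02. In bulk RNA, fewer cells of a type and less RNA per cell cannot be told apart.

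Among the transcription factors of ganglion cell fate, Isl1, a LIM-homeodomain factor that acts with Pou4f2, was the only one with non-overlapping groups at 12 months. It stood at 75.6, 71.4 and 75.2 CPM in control and at 66.2, 63.7 and 67.2 CPM in KO at that age (log2 fold change -0.17 ± 0.08 SE, adjusted p = 0.53, edgeR). At 3 months its groups overlapped, at 73.2, 63.7 and 73.7 CPM in control and 72.1, 65.9 and 64.8 in KO. ON bipolar cells also make Isl1, and 10 of 14 bipolar markers, Isl1 among them, had fitted values below 0 at 12 months, with a median log2 fold change of -0.15 and summed levels of 2358 to 2397 CPM in control and 2068 to 2204 CPM in KO. The part of bipolar RNA in the Isl1 value was not tested. The POU-domain factors Pou4f1 (Brn3a) and Pou4f2 (Brn3b) had log2 fold changes of -0.08 and -0.01 at 12 months. Pou4f2 stood at 17.05 ± 1.70 CPM (SD, n = 3) in 12-month control and at 16.9 ± 0.189 CPM (SD, n = 3) in 12-month KO. Pou4f1 was at 44.4 ± 1.53 in 3-month control, 48.1 ± 2.87 in 3-month KO, 46.2 ± 2.32 in 12-month control and 43.6 ± 3.15 CPM in 12-month KO (SD, n = 3 each).

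Of the cytoskeletal genes 5 of 6 had fitted values below 0 in KO at 12 months, with a median log2 fold change of -0.12 and none called, beside 3 of 3 fate factors with a median of -0.08. Nefl, the light neurofilament subunit, stood at 400.5, 397 and 369 CPM in 12-month control and at 342, 364 and 346 CPM in 12-month KO. The groups did not overlap, and the log2 fold change was -0.15 ± 0.07 (SE, adjusted p = 0.58, edgeR). The alpha-internexin gene Ina was at 137, 132 and 132 CPM in control and at 120, 124 and 120 CPM in KO at 12 months, again without overlap (log2 fold change -0.14, adjusted p = 0.58, edgeR). Ina was lower in KO at 3 months too, at 123, 115 and 127 CPM against 129, 145 and 136 CPM in control, and these groups did not overlap either (log2 fold change -0.17, adjusted p = 0.65, edgeR). These values of Ina come from separate libraries at each age, and neither comparison passed. In a contrast averaged over both ages, chosen after the values had been seen, 0 of 28 genes passed (edgeR, where 0.316% of all genes did), and Ina had the lowest adjusted p (log2 fold change -0.15, adjusted p = 0.23, edgeR, and adjusted p = 0.073 in DESeq2, which also called 0). In that contrast 6 of 28 genes had an unadjusted p under 0.05 with each tool (21.4% in edgeR, against 12.9% of all genes). At 3 months 3 of 6 cytoskeletal genes had fitted values below 0, with a median of -0.04.

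Nefh, the heavy neurofilament subunit, pointed in opposite directions at the separate ages. At 3 months it stood at 89.4, 82.7 and 86.1 CPM in control and at 91.6, 91.7 and 97.7 CPM in KO. At 12 months it stood at 87.5, 91.4 and 87.3 CPM in control and at 79.1, 85.0 and 81.5 CPM in KO. At both ages the groups did not overlap, with KO the higher at 3 months and the lower at 12. The KO effect at 12 months minus that at 3 months was -0.24 ± 0.09 on the log2 scale (SE, unadjusted p = 0.021, adjusted p = 0.999, edgeR) and so did not pass. The middle subunit Nefm was at 127 ± 9.22 CPM in 12-month control and 118 ± 6.06 in KO (SD, n = 3), with overlap. The neuronal tubulin gene Tubb3 was at 194 ± 21.9 and 187 ± 17.02 CPM (SD, n = 3) in the same groups. Prph was the least abundant, at 4.45 ± 0.423 and 4.61 ± 1.27 CPM (SD, n = 3).

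**Figure D2:**
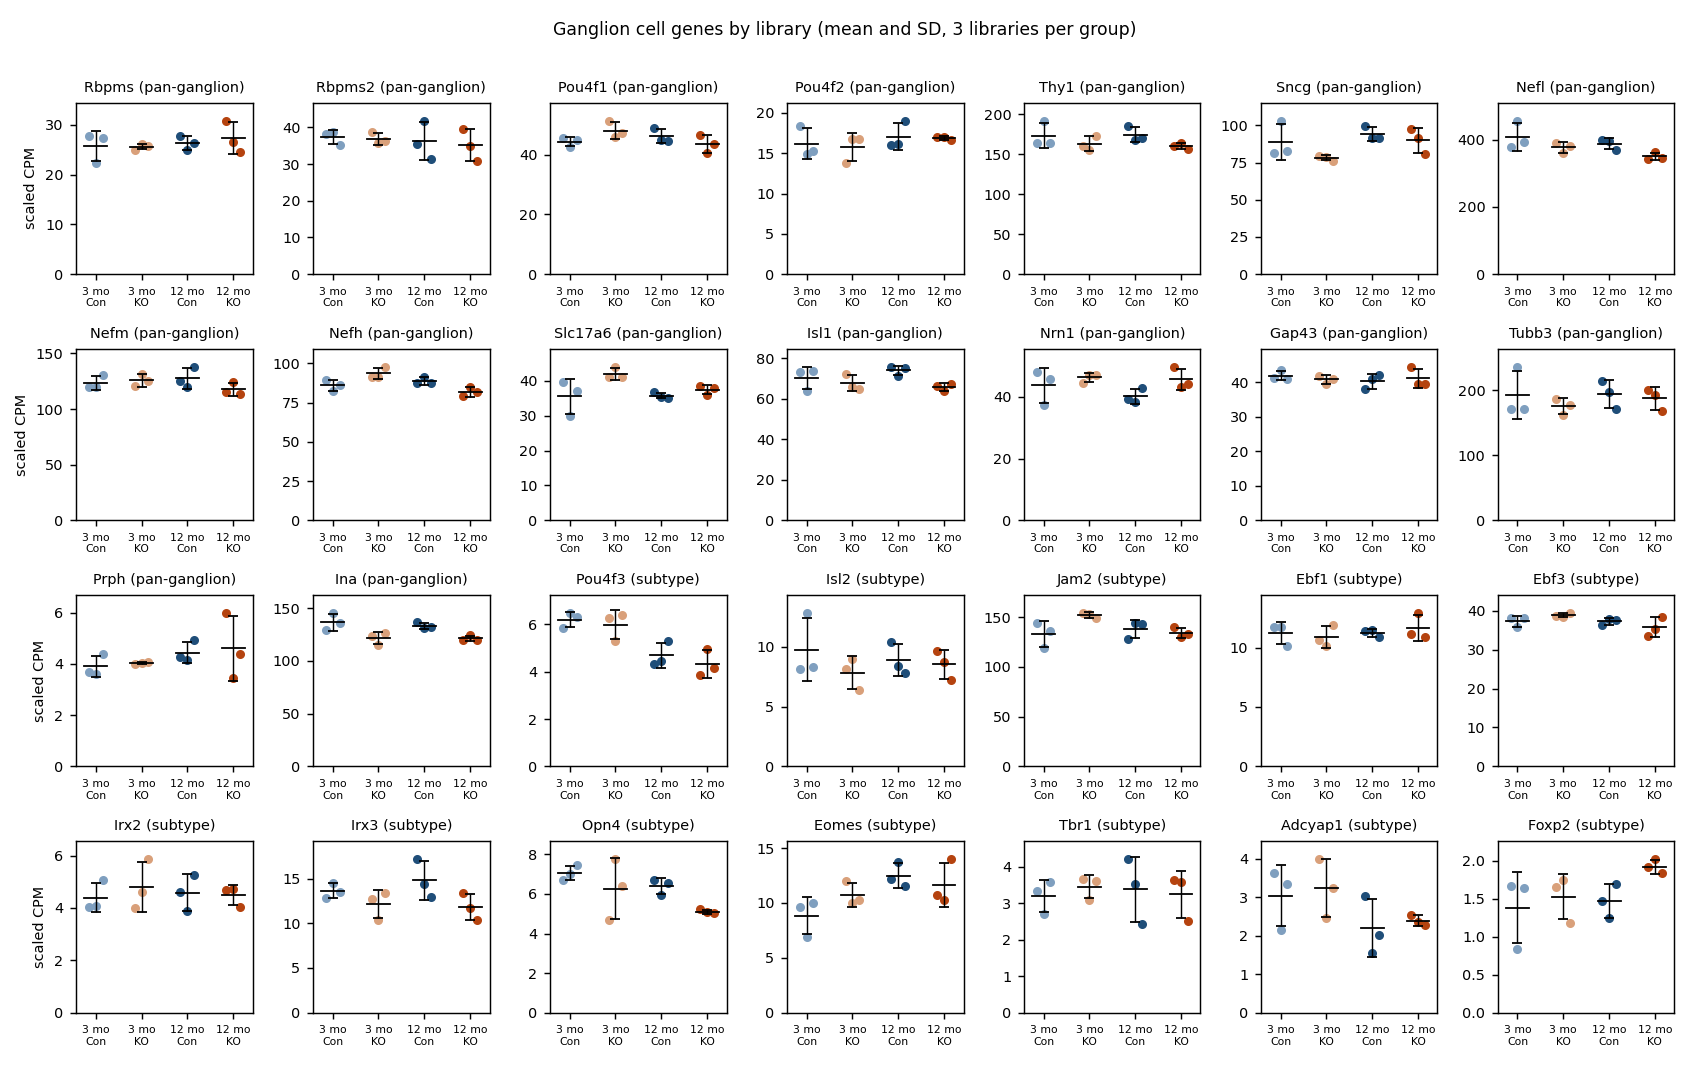
Scaled CPM (vertical axes from 0, each gene on its own scale) of the 28 ganglion cell genes in the 3 libraries of 3-month control, 3-month KO, 12-month control and 12-month KO retina; points are libraries, horizontal lines are means and bars are SD. Most genes lie level across the 4 groups. Without overlap, Nefl, Nefh, Ina, Thy1, Isl1 and Opn4 sit lower in 12-month KO than in 12-month control, and Nrn1 and Foxp2 higher. Ina sits lower in KO at 3 months too, and Pou4f3 sits lower at 12 than at 3 months. None of these differences passed within an age or a genotype.

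Genes of the cell surface, synapse and axon gave no shared direction, with 2 of 5 below 0 at 12 months and 3 of 5 at 3 months. Thy1, a surface glycoprotein long used as a ganglion cell marker, stood at 185, 168 and 170.05 CPM in 12-month control and at 160.5, 164 and 156 CPM in KO. The groups did not overlap (log2 fold change -0.12, adjusted p = 0.66, edgeR), and at 3 months, with 164, 191 and 164 CPM in control and 160, 156 and 173 in KO, they did. Nrn1, a secreted promoter of neurite growth, was the one pan-ganglion gene with higher, non-overlapping KO values at 12 months, at 49.7, 43.3 and 44.1 CPM against 39.4, 38.3 and 42.9 CPM in control (log2 fold change 0.18, adjusted p = 0.59, edgeR). Gap43, a growth cone protein, had log2 fold changes of 0.03 and -0.04 at 12 and 3 months.

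Slc17a6, the vesicular glutamate transporter of ganglion cells, and Sncg, gamma-synuclein, were the surface and synaptic genes furthest from 0 at 3 months. Slc17a6 stood at 39.7, 30.0 and 37.2 CPM in 3-month control and at 41.003, 43.95 and 41.03 CPM in KO, with no overlap (log2 fold change 0.24 ± 0.09 SE, adjusted p = 0.65, edgeR). Its lowest value of all 12 libraries was that of control replicate 2, without which the log2 fold change was 0.13. Sncg stood at 81.65, 102.9 and 82.6 CPM in control and at 79.5, 78.75 and 76.3 CPM in KO at that age (log2 fold change -0.19, adjusted p = 0.66, edgeR), and its highest value was that of the same library, without which the log2 fold change was -0.07.

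That library moved many of the members. Replicate 2 of 3-month control had the highest value of all 12 libraries for 7 of 28 genes, Thy1, Sncg, Nefl, Tubb3, Ina, Pou4f3 and Isl2, and the lowest for 6, Rbpms, Slc17a6, Nrn1, Jam2, Eomes and Foxp2. No other library was highest for more than 4 or lowest for more than 4. Tubb3 was at 235 CPM there and at 172 and 170 CPM in the other controls of that age. The summed level of the 16 pan-ganglion genes was 1631 CPM in that library and 1375 to 1572 CPM in the other 11.

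The subtype genes lay on both sides of 0. Opn4 encodes melanopsin, the photopigment of intrinsically photosensitive ganglion cells. It was the subtype gene with lower, non-overlapping KO values at 12 months, at 5.22, 5.08 and 5.03 CPM against 6.71, 5.95 and 6.55 CPM in control. The log2 fold change was -0.33 ± 0.16 (SE, adjusted p = 0.59, edgeR), with a 95% interval from -0.67 to 0.02, and at 3 months the KO values of 4.69, 7.75 and 6.39 CPM spanned those of control (6.73, 7.01 and 7.46 CPM). Eomes (Tbr2), a transcription factor needed by the same cells, had log2 fold changes of -0.10 and 0.28 at 12 and 3 months. Adcyap1 encodes the peptide PACAP, which these cells release, and had values of 0.12 and 0.09. Among the 3 genes of these photosensitive cells the fitted KO values at 12 months were thus below 0 for Opn4 and Eomes and above 0 for Adcyap1. The 95% interval of Adcyap1 at that age ran from -0.44 to 0.68, and that of Eomes from -0.42 to 0.22. Under the other settings the Adcyap1 value ran from -0.08 to 0.42, so its sign is uncertain.

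Of the other subtype factors, the Iroquois homeobox gene Irx3 had the lowest adjusted p at 12 months of all 28 genes. It stood at 17.2, 14.4 and 12.9 CPM in control and at 13.4, 11.8 and 10.4 CPM in KO, and the groups overlapped (log2 fold change -0.33 ± 0.14 SE, adjusted p = 0.52, edgeR). Its relative Irx2 had a value of -0.03. Foxp2, a forkhead factor of the F-type ganglion cells, had between 25 and 60 counts in a library and stood at 1.92, 2.02 and 1.83 CPM in 12-month KO against 1.47, 1.24 and 1.69 CPM in control. These groups did not overlap, but the log2 fold change of 0.39 had a 95% interval from -0.21 to 0.99. Tbr1, a factor of another set of subtypes, had values of -0.06 and 0.11 at 12 and 3 months, Isl2 of -0.06 and -0.31, Ebf1 of 0.05 and -0.04, and Ebf3 of -0.06 and 0.06. Jam2, an adhesion protein of J-type ganglion cells that detect upward motion, stood at 154, 154 and 149 CPM in 3-month KO against 144, 119 and 136 CPM in control, without overlap (log2 fold change 0.19, adjusted p = 0.65, edgeR), and at 0.12 on the log2 scale without control replicate 2.

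Pan-ganglion and subtype genes had like medians at 12 months, with log2 fold changes of -0.06 and -0.06, beside -0.00 for all genes tested. Fitted values were below 0 for 11 of 16 pan-ganglion and 9 of 12 subtype genes, together 20 of 28, beside 50.7% of all genes. Other retinal neurons leaned both ways at that age. Fitted values were below 0 for 10 of 14 bipolar, 9 of 14 amacrine, 7 of 13 rod and cone and 2 of 6 horizontal genes. Groups did not overlap, with KO lower, for 6 of 28 genes (21.4%, against 8.33% of all genes), Nefl, Nefh, Ina, Thy1, Isl1 and Opn4, 5 of them pan-ganglion. They did not overlap with KO higher for 2 of 28, Nrn1 and Foxp2 (7.14%, against 8.32%). The pan-ganglion median rested on single libraries, running from -0.12 without replicate 1 of 12-month KO to -0.00 without its replicate 3. At 3 months the medians were -0.03 for pan-ganglion and 0.07 for subtype genes, and 15 of 28 fitted values were below 0, beside 49.5% of all genes. The subtype value was -0.01 without control replicate 2 and -0.00 without KO replicate 3. Groups at that age did not overlap for 2 of 28 genes with KO lower (7.14%, against 7.66%) and for 5 with KO higher (17.9%, against 7.97%), the latter being Nefh, Pou4f1, Slc17a6, Jam2 and Ebf3. No test was made of the difference between both sets, since the genes were chosen with results of these data known.

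How large a change between these libraries could have been missed was read from the intervals. At 12 months the 95% interval of the KO effect excluded a 1.5-fold fall for 26 of 28 genes, the exceptions being Irx3 and Opn4, and for all 16 pan-ganglion genes. At that age it excluded a 1.5-fold rise for 26 of 28, the exceptions being Adcyap1 and Foxp2. It excluded a 2-fold fall or rise for all 28. At 3 months a 1.5-fold fall was excluded for 27 of 28, the exception being Isl2. A 1.5-fold rise was excluded there for 25 of 28, the exceptions being Adcyap1, Foxp2 and Eomes. The intervals of the pan-ganglion genes reached down to -0.35 at 12 months and to -0.39 at 3 months on the log2 scale. Those of the subtype genes reached further, to -0.67 (Opn4) and 0.99 (Foxp2) at 12 months and to -0.70 (Isl2) and 0.76 (Foxp2) at 3 months. Changes within the interval of a gene could be missed, and for some subtype genes these include changes above 1.5-fold. At 12 months the intervals reached a median of 0.18 to each side of the fitted value for pan-ganglion genes and 0.34 for subtype genes. The intervals are those of single genes, not adjusted for their number. They rest on the spread between libraries, which could be technical, so they need not hold for differences between mice. Nor do they allow for the Xist, muscle and lens gene differences shared by whole groups. For the change of the KO effect from 3 to 12 months 0 of 28 genes passed (edgeR, lowest adjusted p of 0.999, where 0.127% of all genes passed), and 2 had an unadjusted p under 0.05, Nefh and Jam2 (7.14%, against 4.33%). Fitted values of that change were below 0 for 16 of 28 genes, beside 51.7% of all genes, with medians of -0.01 for pan-ganglion and -0.14 for subtype genes. DESeq2 also gave 0 calls and 2 such genes.

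**Figure D3:**
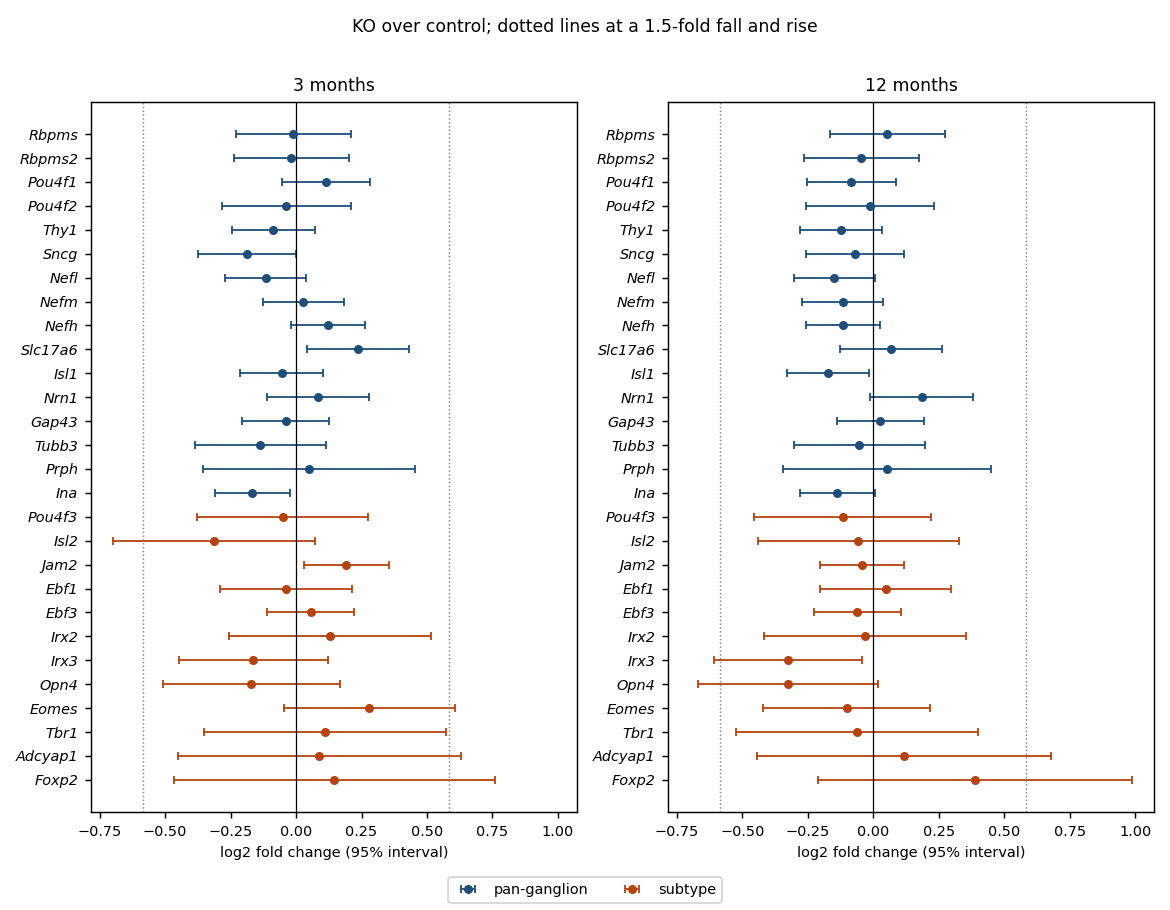
Log2 fold change of KO over control at 3 months (left) and 12 months (right) for the 28 ganglion cell genes; points are fitted values, bars are 95% intervals (edgeR, 3 libraries per group), blue is pan-ganglion and orange subtype, and dotted lines mark a 1.5-fold fall and rise. At 12 months the intervals of all 16 pan-ganglion genes lie between the dotted lines, and those of Irx3 and Opn4 cross the lower one.

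The authors' deposited table for the 12-month comparison gave the same outcome for these genes. Per the authors' deposited table, 0 of 28 had an adjusted p below 0.05, of 109 genes in all, and the lowest adjusted p among the 28 was 0.55, for Irx3. All 28 had the same sign there as in the fit made here, which uses the same libraries.

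With age, too, none of the 28 genes passed within a genotype. From 3 to 12 months 0 of 28 passed in control, where 2.11% of all genes did, and 0 of 28 in KO, where 2.37% did (edgeR, lowest adjusted p of 0.12 for Eomes and 0.16 for Pou4f3). DESeq2 called 0 in each. At an unadjusted p under 0.05 edgeR gave 2 genes in control (7.14%, against 12.5% of all genes) and 4 in KO (14.3%, against 13.3%), and DESeq2 also gave 2 and 4. Medians of the pan-ganglion genes were 0.02 in control and -0.02 in KO, and those of the subtype genes 0.03 and -0.10. Fitted values were below 0 for 10 of 28 genes in control (49.6% of all genes) and for 18 of 28 in KO (50.2%). Each age comparison shares libraries with the KO comparisons, so their values are not independent.

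Pou4f3 (Brn3c), a POU-domain factor of a subset of ganglion cells (Entrez 18998), was lower at 12 months in both genotypes without overlap. In control it stood at 5.84, 6.47 and 6.29 CPM at 3 months and at 4.34, 4.44 and 5.30 CPM at 12 months (log2 fold change -0.40 ± 0.16 SE, adjusted p = 0.26, edgeR). In KO it stood at 6.28, 5.28 and 6.39 CPM at 3 months and at 3.87, 4.98 and 4.14 CPM at 12 months (log2 fold change -0.47 ± 0.16 SE, adjusted p = 0.16, edgeR). The values in control and in KO come from separate libraries. A contrast averaged over both genotypes, chosen after the values had been seen, called Pou4f3 lower with age (log2 fold change -0.43 ± 0.11 SE, adjusted p = 0.023, edgeR), the only 1 of the 28 genes to pass, where 6.38% of all genes did. Of the 28, 4 had an unadjusted p under 0.05 in it (14.3%, against 18.7%). This call was lost without replicate 1 or 2 of 12-month control, replicate 1 or 3 of 3-month KO or replicate 3 of 12-month KO, with adjusted p up to 0.069. In the same averaged contrast without replicate 2 of 3-month control, Sncg was called as well, higher with age by 0.20 on the log2 scale (adjusted p = 0.016, edgeR).

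Eomes was higher at 12 months in control, at 12.2, 13.75 and 11.5 CPM against 9.65, 6.87 and 10.0 CPM at 3 months, without overlap (log2 fold change 0.50 ± 0.16 SE, adjusted p = 0.12, edgeR). In KO it stood at 10.7, 10.3 and 13.96 CPM at 12 months and at 12.0, 9.94 and 10.3 CPM at 3 months, with overlap. The difference between these age effects is that of the KO effects, and it did not pass for Eomes (-0.38 ± 0.22 SE on the log2 scale, adjusted p = 0.999, edgeR). In KO retina Nefh was lower at 12 than at 3 months without overlap (log2 fold change -0.19, adjusted p = 0.17, edgeR), as were Jam2 (-0.18) and Slc17a6 (-0.16). Sncg was higher at 12 months in KO (0.20, adjusted p = 0.32, edgeR), also without overlap. Groups did not overlap with age for 2 of 28 genes lower (8.29% of all genes) and 1 higher (9.21%) in control, and for 4 lower (11.5%) and 2 higher (10.7%) in KO. Adcyap1 had the widest spread between libraries of a group, and its value in control was -0.46 with a 95% interval from -1.02 to 0.09.

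**Figure D4:**
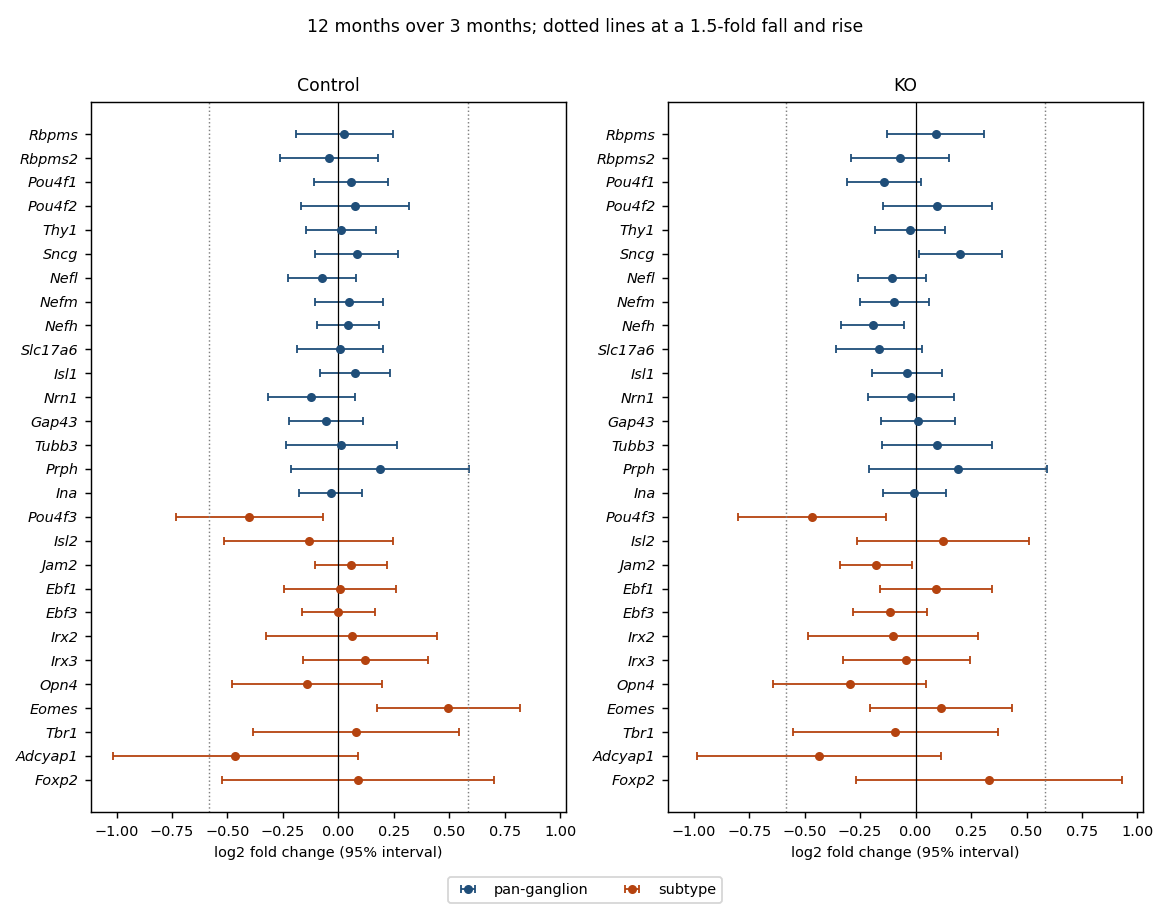
Log2 fold change of 12 over 3 months in control (left) and KO (right) retina for the 28 ganglion cell genes; points are fitted values, bars are 95% intervals (edgeR, 3 libraries per group), blue is pan-ganglion and orange subtype, and dotted lines mark a 1.5-fold fall and rise. Pou4f3 lies at -0.40 and -0.47, and Eomes at 0.50 in control and 0.11 in KO.

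A further list of 35 ganglion cell genes that are not among the 28, of which 34 were tested, gave 0 calls for KO against control at either age (edgeR), with medians of -0.04 at 12 months and 0.01 at 3 months. Its most abundant members were Map1b, a microtubule-associated protein, and Calb2, calretinin, with log2 fold changes at 12 months of 0.06 and 0.03. With age, Mmp17, a membrane-bound metalloproteinase, fell in both genotypes, by 0.36 on the log2 scale in control (adjusted p = 0.017, edgeR) and by 0.45 in KO (adjusted p = 0.0023, edgeR). Sox4, a neuronal transcription factor, fell with age in KO (log2 fold change -0.47, adjusted p = 0.0069, edgeR). No gene of this list passed the test of a difference between the genotypes' age effects. In control the Mmp17 call was lost without replicate 1 or 2 of 12-month control (adjusted p up to 0.12) and in a fit of the control libraries alone (0.11). In KO the Sox4 call was lost without replicate 3 at 3 months (0.078).

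Of 18 axon injury response genes, 17 were tested, and 1 passed for KO against control at 12 months, where 0.212% of all genes did. It was the stress-induced Ddit4, which fell by 0.73 on the log2 scale (adjusted p = 0.00063, edgeR). With age 3 of 17 passed in control, where 2.11% of all genes did, and 3 of 17 in KO, where 2.37% did. The list's median log2 fold change with age was 0.13 in control, with 6 of 17 fitted values below 0. In KO the median was -0.004, with 9 of 17 below 0. The injury-induced transcription factor Atf3 and the pro-apoptotic Bcl2l11 (Bim) were not called between genotypes and rose with age in both, Atf3 by 0.57 in control and 0.80 in KO (adjusted p = 0.048 and 0.0038, edgeR) and Bcl2l11 by 0.46 and 0.57 (adjusted p = 0.014 and 0.0019, edgeR). Ddit4 rose with age in control by 0.49 (adjusted p = 0.0061, edgeR), a call lost without replicate 2 of 12-month control (0.053) and in a fit of the control libraries alone (0.11). The cytokine gene Lif rose with age in KO by 1.27 (adjusted p = 0.033, edgeR). In control the Atf3 call was lost without any of the 3-month libraries or without replicate 1 or 2 at 12 months (reaching an adjusted p of 0.27), and the Bcl2l11 call without replicate 3 at 3 months or replicate 1 or 2 at 12 months (up to 0.070). In a fit of the control libraries alone both calls were lost as well, with adjusted p of 0.14 for Atf3 and 0.086 for Bcl2l11 (edgeR). The Lif call was lost without any KO library but replicate 1 at 12 months (up to 0.17). At 3 months no gene of this list was called between genotypes, and its most abundant members Ddit4 and Map3k12, an axon injury kinase, had log2 fold changes of -0.24 and -0.08.

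Markers of neighbouring cell types gave 0 calls for KO against control at 12 months in the lists of 14 amacrine, 6 horizontal, 14 bipolar, 13 rod and cone, 8 Müller glia, 7 astrocyte and 7 microglia genes that were tested (edgeR). Amacrine genes, which share several markers with ganglion cells, summed to 2389 to 2498 CPM in 12-month control and to 2338 to 2390 CPM in 12-month KO. Peripheral nerve and Schwann cell genes summed to between 71.05 and 84.6 CPM over all libraries. Stmn2, the ganglion cell gene left out, stood at 58.8 ± 3.95 CPM in 12-month control and 94.5 ± 7.46 CPM in 12-month KO (SD, n = 3), and rose in KO by 0.69 on the log2 scale at 12 months and by 0.63 at 3 months (adjusted p = 0.00052 and 0.00073, edgeR). None of the 28 genes lies on chromosome 3.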

How the data were processed

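The 12 retinal libraries were stranded and poly(A)-selected, from RNA whose integrity number exceeded 8.0, per the labels' protocols. The submitters' processing notes name HISAT2 2.1.0, the build GRCm38, featureCounts 1.6.4 and DESeq2 1.22.1. For each library the authors deposited a file of raw counts by Entrez gene ID. How the counting treated strand is not stated in the labels. In a GENCODE annotation, exons of Nefl and Nefm share 1108 bases on opposite strands, those of Ina 456 bases with Nt5c2 and those of Nrn1 501 bases with Fars2. The RefSeq spans of Nefl (chromosome 14 from 68083863 to 68089095) and Nefm (from 68119545 to 68125004) do not overlap. Whether the counts of these genes include reads of the other gene thus depends on the gene models used and is uncertain. Between 60.7% and 70.2% of counts from 1 to 20 were even, so both reads of a pair may have been counted, and counting error may be larger than the counts imply.

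The authors deposited 1 further table, for 12 months and without a header. The mean level per gene in this deposited table was read as a normalized signal. Its deposited log2 fold changes look shrunken, and the deposited score is the fold change divided by its error. The deposited p-value columns hold the raw and the adjusted p.

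RefSeq gave symbols for 25275 of 27179 IDs. Counts were analysed with edgeR 4.0.16 in R 4.3.3 (filterByExpr, TMM, robust quasi-likelihood, 1 coefficient per group, Benjamini-Hochberg adjustment over 16475 genes), and the model was tested on simulated data. Intervals use the moderated degrees of freedom. Text names all 28 members, Abca1 and Stmn2, and from the lists of other ganglion cell and axon injury genes at most 3 called genes per comparison by adjusted p, or the 2 most abundant where none was called; 1 such gene is not reported here. Members and lists were chosen with earlier results of these data known, so no set test was made. Sept4 and Hbb-bt were not matched. Each fit was repeated with RLE scaling, with scaling that ignored muscle, lens, cornea, pigment epithelium and blood genes, with DESeq2 1.42.0, with no filter or a filter of 1 CPM in 3 libraries, at an adjusted p of 0.1, within the groups of a comparison alone, with replicate as a block, and with every library omitted in turn.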

Additional observations from a re-analysis of the deposited data

How the results depend on the processing

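The count of the 28 genes called stayed at 0 in all 5 comparisons under every setting listed with the methods. It was 1 for the age comparisons in control and in KO when the contrast was averaged over both genotypes, an alternative chosen after seeing the data, and 0 for the KO comparisons averaged over both ages. Of 1960 fitted values of the 28 genes under these settings, none of them called, 120 changed sign. With 1 library left out, the medians of the log2 fold changes of pan-ganglion genes ran from -0.12 to -0.0013 for KO against control at 12 months, from -0.04 to 0.00 at 3 months, from -0.01 to 0.03 and from -0.05 to 0.01 with age in control and KO, and from -0.053 to 0.035 for the change of the KO effect with age. Those of subtype genes ran from -0.06 to 0.00, -0.011 to 0.12, -0.02 to 0.04, -0.14 to -0.03 and -0.16 to -0.043. Replicate numbers gave no sign of pairing the libraries, though this cannot exclude it. The correlation of same-numbered deviations ran from -0.08 to 0.14 over the pairs of groups. With the replicate number as a block 0 of 28 genes were called in each of the 5 comparisons. In the age contrast averaged over both genotypes that fit called 1, Pou4f3 (adjusted p = 0.034, edgeR). Its pan-ganglion and subtype medians for KO against control were -0.06 and -0.06 at 12 months and -0.03 and 0.07 at 3 months. Depth limits Foxp2, Adcyap1 and Tbr1 most, with as few as 25, 46 and 72 counts in a library.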
